A study of Mus musculus with 2 samples.

Results

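The Toll-like receptors are germline-encoded sensors of microbial products. Here 10 of them were followed in RNA of splenic cells isolated as Treg cells, namely Tlr1, Tlr2, Tlr3, Tlr4, Tlr5, Tlr6, Tlr7, Tlr8, Tlr9 and Tlr13. They were taken by symbol from the 20938 genes of the deposited tables, and all 10 were found. RNA was sequenced from 1 control library and 1 library of Foxp3-Mettl14f/+ cKO mice, both from spleens taken on day 7 after islet transplantation without antibody treatment. Recipients in both groups had been made diabetic with streptozotocin and carried BALB/c islets under the kidney capsule. Control mice were littermates that the methods give as Mettl14f/f and the labels as wild type. In the cKO mice 1 Mettl14 allele is floxed, and Cre is driven by the Foxp3 promoter, so deletion is directed to Foxp3-expressing cells and the other allele is kept. The label of the cKO library gives its genotype as a knockdown of Foxp3, and the study's name for the group is used here. The age of the mice and whether several mice were pooled into a library are not given in the sources used here. Treg cells were isolated magnetically, by depletion of non-CD4+ cells and positive selection of CD25+ cells.

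Every receptor of the family was higher in the cKO library than in the control library, and 7 of the 10 were at least 1.5-fold higher, a size that 17.2% of all genes compared reached. The difference was uneven between the places where the receptors work. Tlr7, Tlr8, Tlr9 and Tlr13, which read nucleic acids inside endosomes, were 2.36-fold to 3.33-fold higher, whereas the 5 receptors of the cell surface and Tlr3 were 1.35-fold to 1.90-fold higher. There was 1 library per genotype, so no difference has a replicate check and no test between genotypes could be made. Markers of B cells and macrophages were also higher in the cKO library, by 5.58-fold and 3.46-fold in their summed levels.

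Toll-like receptors span the membrane once, bind their ligand through leucine-rich repeats and signal through a cytoplasmic TIR domain that recruits adaptor proteins. Surface receptors mostly recognise lipids and proteins of microbes, and endosomal receptors recognise nucleic acids after the chaperone Unc93b1 has carried them there from the endoplasmic reticulum. The family is best known from macrophages, dendritic cells, neutrophils and B cells, and some members have also been described in T cells and Treg cells, where ligands can alter proliferation and suppression.

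The libraries held 20239325 reads on genes in the control and 18327535 in the cKO. The deposited level of a gene is its read count divided by 1 size factor per library, so that 1 read counts as 0.967 (control) or 1.14 (cKO). Log2 fold changes compare these levels, cKO over control, after adding 1 to each, and the 95% interval is an exact Clopper-Pearson interval on the reads that covers counting error only, since reads are not independent molecules. Of the 16659 genes whose mean reached 1, the cKO library was 1.5-fold or more above the control for the 17.2% given and below it for 24.2%, with a median log2 fold change of -0.04. For genes whose mean reached 10, as that of all 10 receptors did, these shares were 15.4% and 14.9%. Mettl14 went from 948 control reads to 652 cKO reads (log2 fold change -0.31, -0.45 to -0.16), and Foxp3 had 1547 and 1361 reads (log2 fold change 0.05, -0.06 to 0.15).

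The receptor genes are given on GRCm38 (mm10) from GENCODE vM21. On chromosome 5, Tlr1 (chr5:64924679-64933563) and Tlr6 (chr5:64952031-64960097) lie on the minus strand 18467 bases apart. On the X chromosome, Tlr8 (chrX:167242696-167264329) and Tlr7 (chrX:167304929-167330558) lie on the minus strand 40599 bases apart, and Tlr13 (chrX:106143204-106160493) lies elsewhere on the plus strand. The others stand alone, Tlr2 at chr3:83836272-83841767 on the minus strand, Tlr4 at chr4:66827584-66930284 on the plus strand, Tlr5 at chr1:182954788-182976044 on the plus strand, Tlr9 at chr9:106222598-106226883 on the plus strand and Tlr3 at chr8:45395665-45411080 on the minus strand. Values are over a whole gene. Of the 50-base stretches of its transcripts, Tlr1 shares 15.4% and Tlr6 12.3% with other genes, mostly with each other, so the division of reads between this pair is uncertain. An exon of Gm45542 on the opposite strand overlaps Tlr3 over 381 bases, and whether reads were counted by strand is not stated.

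Levels between receptors were compared per kilobase of exon and per 1000000 gene reads (RPKM), as plotted by library. In the control library Tlr1 was the highest at 13.9 RPKM, followed by Tlr13 at 9.49. Tlr2 (6.26) and Tlr9 (6.04) came next with overlapping counting intervals, and then Tlr4, Tlr8, Tlr7 and Tlr6, from 4.85 down to 3.99, whose neighbours also overlapped. Tlr3 (0.892) and Tlr5 (0.887) were the lowest and could not be separated. In the cKO library the top of the order held Tlr13 (21.1), Tlr1 (20.7) and Tlr9 (18.9), in which each neighbour's interval overlapped the next. Tlr7 followed at 13.1, above Tlr2 (10.8) and Tlr8 (10.4), which overlapped. Tlr4 (8.64) and Tlr6 (5.31) were each separated from their neighbours, and Tlr5 (1.15) and Tlr3 (1.13) were again lowest. Tlr7 thus stood above Tlr2 in the cKO library and below it in the control library.

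**Figure D1:**
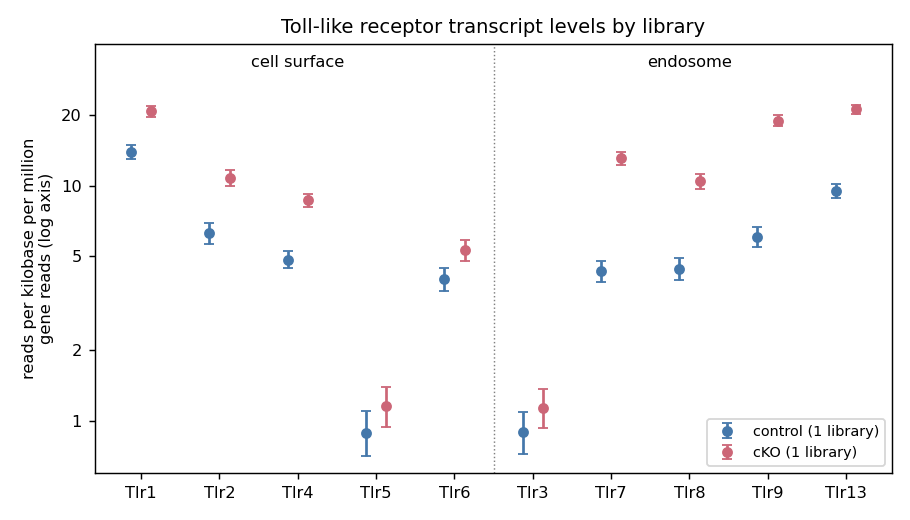
Level of each receptor in reads per kilobase of exon and 1000000 gene reads (log axis) in the control and cKO libraries, 1 library each, with 95% counting intervals. Every receptor is higher in the cKO library, and Tlr3 and Tlr5 are the lowest in both, near 1 on this scale.

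The endosomal receptors held the largest differences. Tlr9, the sensor of unmethylated CpG DNA, had 425 control reads and 1205 cKO reads. Its deposited level was 411 and 1370.3, which gave a log2 fold change of 1.73 (1.58 to 1.90). Tlr7, a sensor of single-stranded RNA, had 357 and 978 reads and a log2 fold change of 1.68 (1.51 to 1.87). The ratio of Tlr9 to Tlr7 reads was 1.19 in the control and 1.23 in the cKO library, and the cKO ratio over the control ratio was 1.03 (0.875 to 1.22). The changes of this pair were therefore not separable by counting, although the interval allows a difference of up to 1.22-fold.

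Tlr8, the neighbour of Tlr7 on the X chromosome and also a receptor for RNA, had 321 and 684 reads and a log2 fold change of 1.32 (1.13 to 1.52). The ratio of Tlr7 to Tlr8 reads was 1.29-fold higher in the cKO library (1.07 to 1.54). Tlr13, which recognises bacterial ribosomal RNA and is absent from the human genome, had 827 and 1662 reads, and its log2 fold change was 1.24 (1.12 to 1.36). Relative to Tlr13, Tlr7 was 1.36-fold higher in the cKO library (1.17 to 1.58). In each of these 4 receptors the cKO library was more than 2-fold above the control.

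Tlr3, the receptor for double-stranded RNA and the member that signals through Ticam1 without Myd88, was the exception among the 5 endosomal members. It had 94 control reads and 108 cKO reads, with deposited levels of 90.9 and 123. Its log2 fold change of 0.43 (0.02 to 0.85) was the lowest of the family and was under 1.5-fold. The ratio of Tlr9 to Tlr3 reads was 4.52 in the control and 11.2 in the cKO, 2.47-fold higher (1.81 to 3.36).

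Among the surface receptors the largest difference was that of Tlr4, the receptor for lipopolysaccharide, with 545 and 880 reads and a log2 fold change of 0.92 (0.77 to 1.08). Tlr2, which recognises lipopeptides as a heterodimer with Tlr1 or Tlr6, had 382 and 595 reads and a log2 fold change of 0.87 (0.68 to 1.06). The ratio of Tlr4 to Tlr2 reads was 1.04-fold higher in the cKO library (0.874 to 1.23), so these 2 receptors were not separable. Tlr1, the partner of Tlr2 for triacylated lipopeptides, had 941 and 1267 reads and a log2 fold change of 0.66 (0.54 to 0.79), an interval that holds the 1.5-fold line. Tlr6, its partner for diacylated lipopeptides, had 301 and 363 reads and a log2 fold change of 0.50 (0.28 to 0.73), under 1.5-fold. Relative to Tlr4, the endosomal Tlr9 was 1.76-fold higher in the cKO library (1.50 to 2.05).

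Because Tlr1 and Tlr6 share sequence, they were also summed, which gave 1242 and 1630 reads and a log2 fold change of 0.63 (0.52 to 0.73). The ratio of Tlr1 to Tlr6 was 3.13 and 3.49, a 1.12-fold difference whose interval (0.934 to 1.33) includes 1. Tlr5, the receptor for flagellin, had only 86 and 101 reads and a log2 fold change of 0.46 (0.04 to 0.90), and the interval nearly reaches 0. Tlr11 and Tlr12, the endosomal mouse receptors for profilin that also need Unc93b1, are not among the 10. Tlr11 had 45 and 106 reads (log2 fold change 1.45, 0.95 to 2.01). Tlr12 had 175 and 225 (0.59, 0.30 to 0.89), which lies within the range of the surface receptors.

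**Figure D2:**
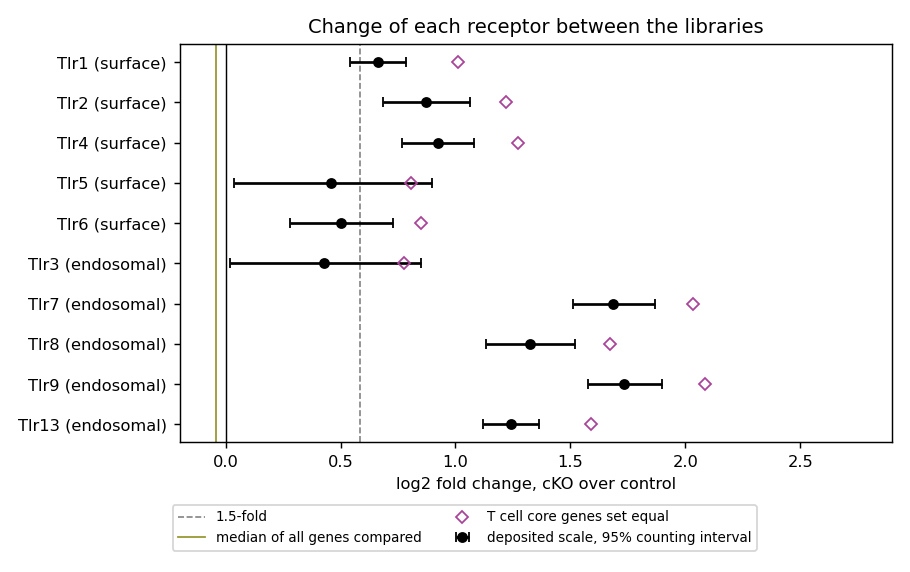
Log2 fold change of each receptor, cKO over control, on the deposited scale with 95% counting intervals (black) and after equalising the T cell core genes (open diamonds), beside the 1.5-fold line and the median of all genes. Tlr7, Tlr8, Tlr9 and Tlr13 lie above 1, and Tlr3 lies with the surface receptors.

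Compared as classes, 4 of 5 endosomal and 3 of 5 surface receptors were at least 1.5-fold higher, and none of either class was 1.5-fold lower. Of all genes compared, 17.2% were 1.5-fold higher and 24.2% lower. For genes whose mean reached 10, these shares were 15.4% and 14.9%. The median log2 fold change was 1.32 for endosomal receptors, whose members ranged from 0.43 to 1.73, and 0.66 for surface receptors, which ranged from 0.46 to 0.92, beside -0.04 over all genes. Endosomal reads summed to 2024 (control) and 4637 (cKO), a log2 fold change of 1.43 (1.35 to 1.51). Surface reads summed to 2255 and 3206, a log2 fold change of 0.74 (0.66 to 0.82). Since both sums come from the same library, their ratio does not depend on the scaling between libraries. There were 0.898 endosomal reads per surface read in the control and 1.45 in the cKO, which is 1.61-fold higher (1.49 to 1.74). Without Tlr3 this was 1.65-fold (1.53 to 1.78). In all, 9 ratios between receptors or classes were computed, and the pairs were chosen with the values known.

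The same ratio can be given as a share. Endosomal receptors held 47.3% (45.8% to 48.8%) of the 4279 receptor reads of the control library and 59.1% (58.0% to 60.2%) of the 7843 of the cKO library. Without Tlr13, the endosomal receptor with the most reads, the shares were 34.7% and 48.1%. Per kilobase of exon they were 45.7% and 58.1%.

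**Figure D3:**
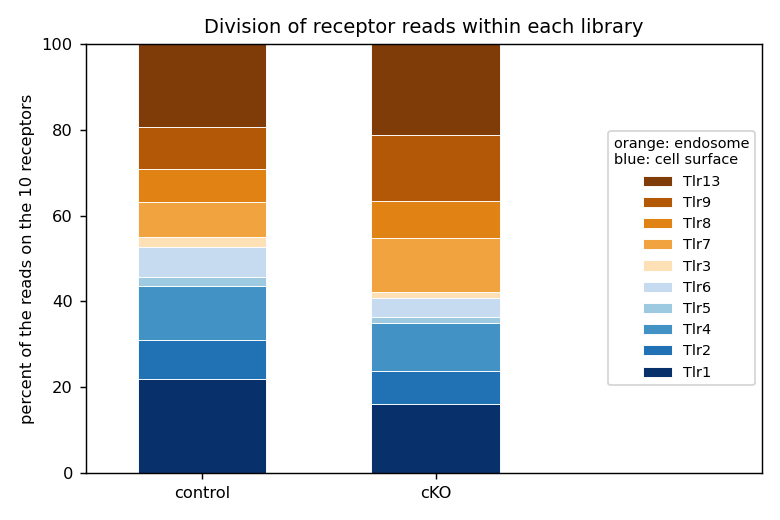
Share of the receptor reads of each library held by each receptor, in percent, with endosomal receptors in orange and surface receptors in blue. The orange part is 47.3% for the control and 59.1% for the cKO.

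The starts of Tlr8, Tlr9, Tlr13 and Tlr3 are shown because the first 3 were among those that differed most and Tlr3 among those that differed least. Each is the 250 bases before the RefSeq start (GRCm38.p6), read 5′ to 3′ on the strand of the gene, at chrX:167264330-167264579 (minus), chr9:106222348-106222597 (plus), chrX:106143025-106143274 (plus) and chr8:45410381-45410630 (minus). The RefSeq starts of Tlr13 and Tlr3 lie inside the GENCODE genes. Capitals mark GAGGAA, a core that PU.1 (Spi1), the factor of myeloid and B cells, can bind, on either strand.
Tlr8: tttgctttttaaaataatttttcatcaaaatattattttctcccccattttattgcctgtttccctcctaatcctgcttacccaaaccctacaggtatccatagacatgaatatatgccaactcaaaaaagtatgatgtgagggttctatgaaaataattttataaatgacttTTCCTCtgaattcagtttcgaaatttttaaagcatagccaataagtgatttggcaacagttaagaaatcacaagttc
Tlr9: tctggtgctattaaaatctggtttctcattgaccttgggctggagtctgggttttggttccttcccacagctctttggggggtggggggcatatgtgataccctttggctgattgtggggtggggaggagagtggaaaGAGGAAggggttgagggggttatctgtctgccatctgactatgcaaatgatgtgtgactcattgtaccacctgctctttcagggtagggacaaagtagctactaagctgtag
Tlr13: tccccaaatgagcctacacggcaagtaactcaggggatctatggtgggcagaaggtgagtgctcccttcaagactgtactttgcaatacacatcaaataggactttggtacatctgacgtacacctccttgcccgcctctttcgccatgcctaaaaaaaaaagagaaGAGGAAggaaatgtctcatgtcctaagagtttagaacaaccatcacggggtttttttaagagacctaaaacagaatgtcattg
Tlr3: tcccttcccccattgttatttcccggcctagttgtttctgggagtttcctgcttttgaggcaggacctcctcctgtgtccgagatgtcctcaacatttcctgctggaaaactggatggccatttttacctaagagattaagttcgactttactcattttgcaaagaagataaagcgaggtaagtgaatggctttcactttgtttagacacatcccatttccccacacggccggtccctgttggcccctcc

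The PU.1 core stood with its first base 77 bases before the start in Tlr8, 112 in Tlr9 and 83 in Tlr13, and was not among the letters of the Tlr3 window. Of the 8 receptors with an entry, Tlr1 also held it, in 1 of its 2 windows, and Tlr2, Tlr5 and Tlr6 did not. The PU.1 core occurred in 23.3% of all 32851 promoter windows of this length. The letters GAAANNGAA, found at interferon-responsive genes, occurred in Tlr8, in 1 of the 2 windows of Tlr6 and in 7.13% of all windows. The NF-kB consensus occurred in Tlr2 and Tlr3 and in 3.90% of all windows. A receptor was counted if any window matched, whereas these shares are per window. Tlr4 and Tlr7 had no entry. A match is only a match of letters, and binding was not measured.

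Genes that act with the surface receptors were mostly higher in the cKO library, with a median log2 fold change of 1.32. By at least 1.5-fold 4 of 6 were higher (17.2% of all genes) and none lower (24.2% of all genes). For genes whose mean reached 10, as that of all 6 did, these shares were 15.4% and 14.9%. Cd36, a scavenger receptor that assists Tlr2 and Tlr6, had 138 and 499 reads (log2 fold change 2.08, 1.81 to 2.37). Cd180 and its partner Ly86, which form a complex related to Tlr4 and Ly96 on B cells, had 584 and 1785 reads (1.84) and 396 and 965 reads (1.52). Cd14, which hands lipopolysaccharide to Tlr4, had 201 and 373 reads (1.12, 0.87 to 1.38). Ly96, without which Tlr4 does not bind lipopolysaccharide, had 47 and 60 reads (0.58, 0.01 to 1.17), and Lbp, the serum protein upstream of Cd14, had 575 and 482 (-0.02).

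For the genes that fold, carry and cut the receptors the picture was divided. Of 14 measured, 6 were at least 1.5-fold higher and 2 lower, beside 17.2% and 24.2% of all genes, and the median log2 fold change was 0.29. Unc93b1, the carrier of the endosomal receptors, had 2801 and 5808 reads, a log2 fold change of 1.29 (1.22 to 1.35). The chaperones needed by most Toll-like receptors were not 1.5-fold apart, with 27474 and 21361 reads for Hsp90b1 (log2 fold change -0.13) and 865 and 781 for Cnpy3 (0.09). Lgmn, an endosomal protease that processes Tlr9, had 763 and 1643 reads (1.34). Slc15a4 (950 and 1388 reads, 0.78) and 5430427O19Rik, the gene of its partner Tasl (326 and 680 reads, 1.29), connect endosomal receptors to Irf5. Cnpy4, a relative of Cnpy3, had 542 and 299 reads (-0.62) and Ctsl, a cathepsin, 384 and 290 (-0.17). Ctsk, the other gene called lower, had 6 control reads and 0 cKO reads.

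Of 22 adaptors and kinases of the shared signalling chain, 3 were at least 1.5-fold higher, a share near the 17.2% of all genes, and none was lower. Their median log2 fold change was 0.31. Myd88, the adaptor of all members but Tlr3, had 1832 and 1970 reads (log2 fold change 0.34, 0.25 to 0.43), and Ticam1, the adaptor of Tlr3 and of internalised Tlr4, had 738 and 689 (0.13, -0.02 to 0.29). Tirap, which bridges Tlr2 and Tlr4 to Myd88, was at 0.52, Irak4 at 0.49 and Traf6 at 0.11 on the log2 scale. The 3 that passed were Pik3ap1, a link to PI3K (1.33), Map3k8, a kinase upstream of ERK (1.24), and Irak2 (0.87). Ikbke and Ikbkg had the lowest value, -0.43 each.

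Of 10 transcription factors 3 were at least 1.5-fold higher, beside 17.2% of all genes, and none lower. Irf5, the factor downstream of Myd88 in myeloid and B cells, had 980 and 2499 reads (log2 fold change 1.58, 1.48 to 1.69), Irf8 had 2095 and 3579 (1.01) and Rel was at 0.79. Irf7, which drives type I interferon after Tlr7 and Tlr9, had 1446 and 1408 reads (0.19), and Irf1 (0.05) and Irf3 (-0.09) were lowest. Of 12 negative regulators 4 were higher, beside the same 17.2%, and none lower. The 4 were Dok3 (1.43), Tnfaip3 (1.14), Zc3h12a (0.90) and Irak3, a kinase-dead inhibitor of the chain (724 and 1123 reads, 0.87). Il1rl1 (-0.56) and Sarm1 (-0.51) were at the other end.

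Of 24 genes that Toll-like receptor signalling is known to induce, 16 were at least 1.5-fold higher, beside 17.2% of all genes. Another 7 were lower, a share near the 24.2% of all genes, and the median was 1.37. Il1b had 1185 and 4199 reads (log2 fold change 2.06), Ptgs2 had 41 and 565 (3.98) and Cxcl2 had 23 and 447 (4.45). Il12b had 0 and 25 reads, at least 9.80-fold higher against a floor of 3 reads. Il6 had 26 reads and 0, at least 7.37-fold lower, and Ccl2 had 53 and 11 (-1.95). Tnf had 496 and 383 reads (-0.14, -0.34 to 0.06). In 6 genes 1 library was at 0, and Cxcl1, with 4 reads and 0, would not be called lower against the floor.

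**Figure D4:**
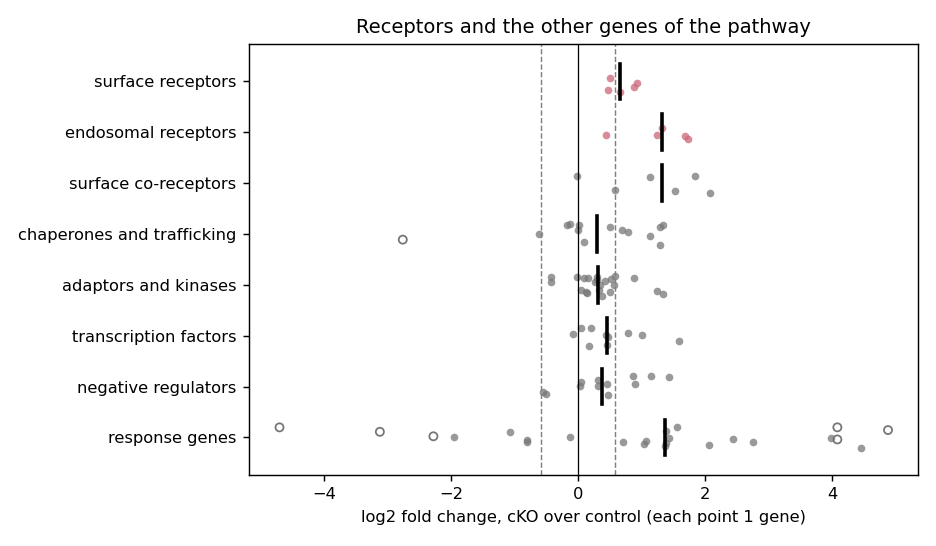
Log2 fold change, cKO over control, of every receptor and every other pathway gene, grouped by role, 1 point per gene. Black bars are group medians and open circles are genes at 0 in 1 library. Co-receptors (median 1.32) sit well above adaptors and kinases (0.31), and response genes are the most spread.

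The receptors were also set beside markers of the cells that the isolation could hold. The 10 B cell markers were all at least 1.5-fold higher, with 7736 reads in the control and 36690 in the cKO library (median log2 fold change 2.47). The 12 macrophage markers were all higher as well, with 4004 and 11772 reads (median 2.99). Over all genes 17.2% were at least 1.5-fold higher and 24.2% lower. Of 8 monocyte markers 6 were higher (18526 and 31439 reads, median 1.22). Fn1 alone held 6629 and 14274 of these reads, and Ly6c2 (log2 fold change 0.32) and F13a1 (0.29) stayed under 1.5-fold. Of 8 plasmacytoid dendritic cell markers 6 were higher (3194 and 5221 reads, median 0.80). They include Klk1 (6 and 11 reads) and Cox6a2 (5 and 7 reads), whose counting intervals held 0. Spib, also among the 6, had 552 and 1995 of the reads (log2 fold change 2.08), and Bst2, which was not, was at -0.01. Of 9 conventional dendritic cell markers 2 were higher (8802 and 13163 reads, median 0.35), near the 17.2% of all genes. These 2 were Wdfy4, which alone held 5693 and 9696 of the reads, and Itgax (log2 fold change 0.65). Zbtb46 (-0.42) and Clec9a (-0.25) were lower, by less than 1.5-fold. Of 12 neutrophil markers 4 were higher (261757 and 320937 reads, median 0.47). None of these markers was at 0 in either library. Of 10 erythroid markers 7 were at least 1.5-fold lower and none was 1.5-fold higher (31509 and 15033 reads in all, median -1.23). The other 3 were the globin genes Hba-a2 (log2 fold change 0.44, 0.37 to 0.51) and Hba-a1 (0.12, 0.02 to 0.22) and the haem synthesis gene Alas2 (0.05, -0.14 to 0.23).

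Treg markers were present in both libraries, with 9534 and 8766 reads over 12 genes. Their summed deposited level was 1.08-fold higher in the cKO library, and their median log2 fold change was -0.02. Of the 12 genes 2 were higher and 3 lower by 1.5-fold. Among genes whose mean reached 10, as that of all 12 did, 15.4% were higher and 14.9% lower. The 14 T cell core genes had 60905 and 40639 reads and a median of -0.35. Of them 2 were lower and none higher, beside the same shares, since their means also reached 10. In both libraries the 12 neutrophil markers held more reads than these genes, 261757 and 320937. Whether the receptor reads came from Treg cells or from other cells was not tested, and in bulk RNA fewer cells of a type cannot be told apart from less RNA per cell.

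Per 100 B cell marker reads the endosomal receptors had 26.2 reads in the control and 12.6 in the cKO, and for surface receptors 29.1 and 8.74. Per 100 macrophage marker reads there were 50.5 and 39.4 endosomal and 56.3 and 27.2 surface reads. Against both of these marker sets the receptors were thus lower in the cKO library. Per 100 monocyte marker reads the endosomal receptors were at 10.9 and 14.7 and the surface receptors at 12.2 and 10.2. In both libraries Fn1 held more of the monocyte marker reads than any other gene of that list. Per 100 neutrophil marker reads both classes were higher in the cKO library, at 0.773 and 1.44 for endosomal and 0.861 and 0.999 for surface receptors. Per 100 Treg marker reads the endosomal receptors were at 21.2 and 52.9 and the surface receptors at 23.7 and 36.6. Per 100 T cell core reads both were higher in the cKO library, at 3.32 and 11.4 for endosomal and 3.70 and 7.89 for surface receptors. The part of these cell types in the receptor differences was not tested.

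**Figure D5:**
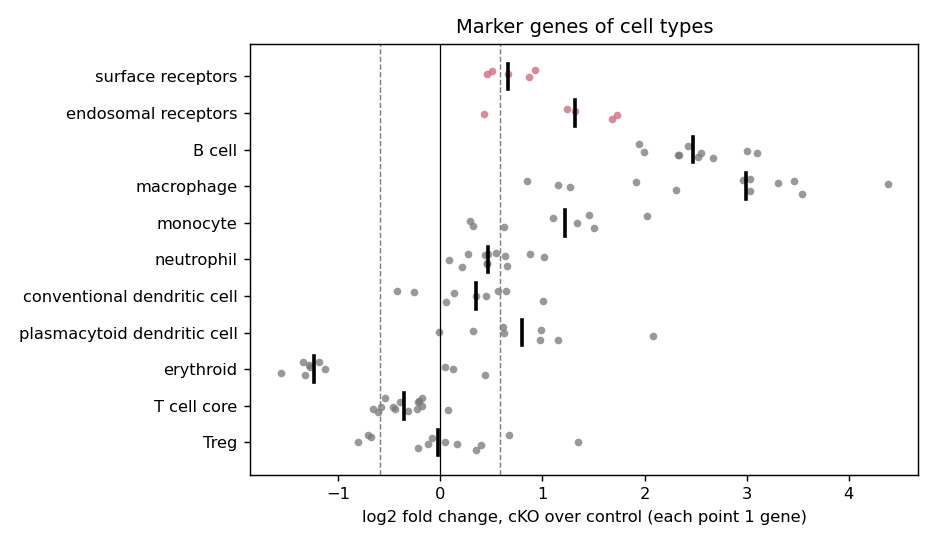
Log2 fold change, cKO over control, of marker genes of cell types, 1 point per gene, with black bars for group medians and open circles for genes at 0 in 1 library (none in these lists). B cell and macrophage markers lie highest (medians 2.47 and 2.99), and erythroid markers have the lowest median (-1.23).

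An exact binomial test on the recovered reads compares the 2 libraries, not the genotypes, and called 14.8% of 14863 genes higher and 17.6% lower. It called 3 surface and 4 endosomal receptors higher, and none lower. If replicates are assumed to vary with a biological coefficient of variation of 0.4, a value chosen after the data were seen, edgeR's exact test called 229 genes higher and 569 lower, and none of the 10 receptors. When levels were rescaled to equalise the T cell core genes, 30.8% of genes were called higher and 18.8% lower by 1.5-fold, the median of all genes was 0.31, and all 10 receptors passed 1.5-fold.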

How the data were processed

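Treg RNA from 1 control and 1 cKO mouse spleen sample was sequenced, with 1 library per genotype. What was deposited is a signal in which whole reads were divided by 1 size factor per library. The authors aligned reads to mm10, with TopHat according to the methods, whereas the submitters' processing notes list bcl2fastq 2.0, STAR, StringTie and DESeq2. The counter, the strand setting and the annotation are not given in the sources used here. Dividing by the smallest value recovered whole reads for 100% of values (tolerance 0.001), and 3 reads, the floor, are 0.148 and 0.164 per 1000000 reads.

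Changes used a pseudocount of 1, a minimum mean of 1 and a threshold of 1.5-fold from the methods, which also give 0.1 without naming its quantity (read here as an adjusted p-value). Intervals of log2 fold changes are 95% exact Clopper-Pearson intervals, conditional on both libraries' reads. Those of levels and shares are 95% exact binomial intervals within 1 library. Ratios between receptors or classes have 95% conditional intervals of an odds ratio. The exact binomial test with Benjamini-Hochberg adjustment took genes of at least 10 reads. Calls of this test and of edgeR's exact test needed an adjusted p-value below 0.1 and a difference of at least 1.5-fold. Symbols were looked up in GENCODE vM21 (20492 of 20938 found). Promoters came from RefSeq (8 of 10 receptors). Named genes were the 10 receptors, Tlr11, Tlr12, Mettl14, Foxp3, a list of accessory genes (Cd14, Ly96, Cd36, Cd180, Ly86, Unc93b1, Cnpy3, Hsp90b1, Slc15a4, 5430427O19Rik, Irf5, Irf7, Myd88, Ticam1, Tirap, Irak4, Traf6 and Irak3), and the 2 highest and 2 lowest of each pathway list with a mean of at least 10. Tnf, Il1b, Ptgs2, Irak2, Rel, Zc3h12a, Ctsk, Cxcl1, Klk1, Cox6a2, Spib, Bst2, Wdfy4, Itgax, Zbtb46, Clec9a, Fn1, Ly6c2, F13a1, Hba-a1, Hba-a2 and Alas2 were named in addition where they appear, with values known. The receptors and lists were chosen with earlier results of these data known. Alternatives were pseudocounts of 0.1 and 5, no filter or a mean of 10, 4 scalings, a 2-fold threshold, and, added later, edgeR with an assumed coefficient of variation of 0.4. Only the binomial calls, the fold change intervals and the recovery of reads were tested on simulated Poisson reads. These held no variation between animals, so this check does not cover the limit of 1 library per genotype. Python 3.11.15 (numpy 2.4.6, pandas 2.3.3, scipy 1.17.1, matplotlib 3.10.9) and R 4.3.3 (edgeR 4.0.16) were used.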

Additional observations from a re-analysis of the deposited data

How the results depend on the processing

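No paired analysis was possible because only 1 control and 1 cKO library were used, and for the same reason no replicate could be left out. All 10 receptors kept their direction under every alternative scaling, pseudocount and filter tried. Tlr1 was under 1.5-fold (log2 fold change 0.57) when library totals were used. After equalising the T cell core genes, the surface median was 1.01 and the endosomal median 1.67. With a 2-fold threshold 4 receptors were called higher, but the share of all genes at 2-fold was not computed, so this count has no background. At an assumed coefficient of variation of 0.4, edgeR's exact test called 0. The endosomal share was 34.7% in the control and 48.1% in the cKO library without Tlr13, and 45.7% in the control library per kilobase. Depth limits Tlr3 and Tlr5 most, with 94 and 86 reads in the control library.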
